A study of Mus musculus with 10 samples.

Results

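The mitosis genes are 39 genes of the G2 and M phases of the cell cycle, chosen by name for their roles in cell division. Of these, 37 had a probe set that the platform annotation gives a single gene symbol, among 22180 genes measured in all. Ccnb1 and Ncapg had no such probe set and are not analysed here. The values come from 10 Affymetrix arrays, each of RNA from a 3 cm piece of mouse jejunum, cut from the mid part of the small bowel. A group of 5 arrays came from Pcyt1aLoxP/LoxP;VilCreERT2 mice, called knockout here, and 5 came from Pcyt1aLoxP/LoxP mice without the recombinase, called control. Cre in the first group is driven by villin, a gene of the intestinal epithelium, and works after tamoxifen, which both groups received for 5 days. All mice were females aged 10 to 12 weeks that had high-fat food for 3 days, were fasted overnight and ate the same food again for 2 hours. Cre was carried by the knockout group alone, so its own action and the loss of Pcyt1a cannot be told apart. Pcyt1a encodes the enzyme that controls the rate of phosphatidylcholine synthesis, and the comparison asks what its loss changes in the re-fed jejunum.

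The targeted gene went with the labels. Pcyt1a had a log2 intensity of 9.22 ± 0.20 (SD, n = 5) in the control arrays and 7.51 ± 0.16 (SD, n = 5) in the knockout arrays, and the groups did not overlap (difference -1.71, SE 0.11, limma adjusted p = 6.51e-05; two-sided exact permutation p = 0.00794, the smallest that 5 arrays against 5 allow). Array medians lay between 45.8 and 48.1 on the linear scale, and pairwise correlations of the arrays across genes ran from 0.972 to 0.993. The labels give no batch, and they do not state that each array is a separate animal, so a p-value here reflects how far these samples varied, and that variation could be technical. In a piece of whole tissue, fewer cells of a type and less RNA per cell cannot be told apart.

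Cells enter mitosis when Cdk1 bound to cyclin A and then cyclin B becomes active. Polo and Aurora kinases then build the spindle, a checkpoint holds anaphase until every kinetochore is attached, and the anaphase-promoting complex with Cdc20 marks securin and cyclin B for destruction. Transcripts of these genes are scarce in resting cells and accumulate late in the cycle. In the small intestine the dividing epithelial cells sit in the crypts, as stem cells and transit-amplifying cells, while the absorptive cells of the villus have left the cycle.

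As a set, the mitosis genes stood higher in knockout, but arrays of the same genotype differed as much as the genotypes did. All 37 measured members had a higher mean in knockout, as 49.9% of all genes did, with differences from 0.14 to 0.88 on the log2 scale and a median of 0.55, against a median of -3.54e-04 over all genes tested. None passed the test across all genes: 0 of 37 reached a limma adjusted p under 0.05, where 0.171% of all genes were called higher in knockout. The smallest adjusted p was 0.0861, for Birc5. At an unadjusted p under 0.05, 24 of 37 were higher and 0 lower, against 5.82% of all genes higher and 6.25% lower. The members share one pattern over the arrays, so these are not 37 independent observations. In 0 of 37 members did all knockout arrays lie above all control arrays, which held for 1.20% of all genes (2.77% with either group above).

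The number at an unadjusted p under 0.05 moved with single arrays. It was 36 of 37 without knockout 5 and also 36 without control 3. It was 13 without knockout 2, 11 without knockout 4, 14 without control 2 and 11 without control 5, and 7 without knockout 1 and control 5 together. The share of all genes at this limit is not given for these fits, so the shifts cannot be called particular to the members. At a limma adjusted p under 0.05, the main fit called 76 of all genes. That number was 59 without knockout 5, 50 without control 3, 11 without knockout 2 and 12 without knockout 4. Without control 2 there were 16, without control 5 there were 36, and without knockout 1 and control 5 together 186. Without control 3, Birc5 was called (limma adjusted p = 0.0179), in a fit that called 0.135% of all genes higher. The median difference stayed between 0.41 and 0.74 with any single array left out.

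The members shared a split of the arrays into an upper and a lower set, with Pttg1 as the exception. Each array was described by the mean over the 37 members of the log2 intensity minus the gene's own mean. This array mean was highest in knockout 4, at 0.68, followed by knockout 2 at 0.47, knockout 1 at 0.42, control 3 at 0.36 and knockout 3 at 0.30. After a gap of 0.49 came control 1 at -0.19, control 4 at -0.35, control 2 at -0.42, knockout 5 at -0.43 and control 5 at -0.83. The upper set thus held 4 knockout arrays with control 3, and the lower set 4 control arrays with knockout 5. The 5 control arrays averaged -0.29 ± 0.43 (SD) and the 5 knockout arrays 0.29 ± 0.42 (SD), which is 0.58 apart.

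Most single genes had the same arrays at the ends. Knockout 4 was the highest array in 33 of 37 members and control 5 the lowest in 31. In 36 of 37 members knockout 5 lay below the other 4 knockout arrays, and control 3 lay above the other 4 controls in 36 of 37. Knockout 5 exceeded control 3 in 1 member, Pttg1. Inside each set the order of neighbours varied between members. Knockout 2 was above knockout 1 in 22 of 37, knockout 1 above control 3 in 23 and control 3 above knockout 3 in 21, with mean gaps of 0.04, 0.07 and 0.06. Knockout 3 was above control 1 in all 37 members. In the lower set, control 1 was above control 4 in 29 of 37 (mean gap 0.16), control 4 above control 2 in 26 (0.06) and control 2 above knockout 5 in 21 (0.01). Knockout 5 was above control 5 in 35 (0.41). Each array is a single sample, so these counts describe the members and test no difference between arrays.

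**Figure D1:**
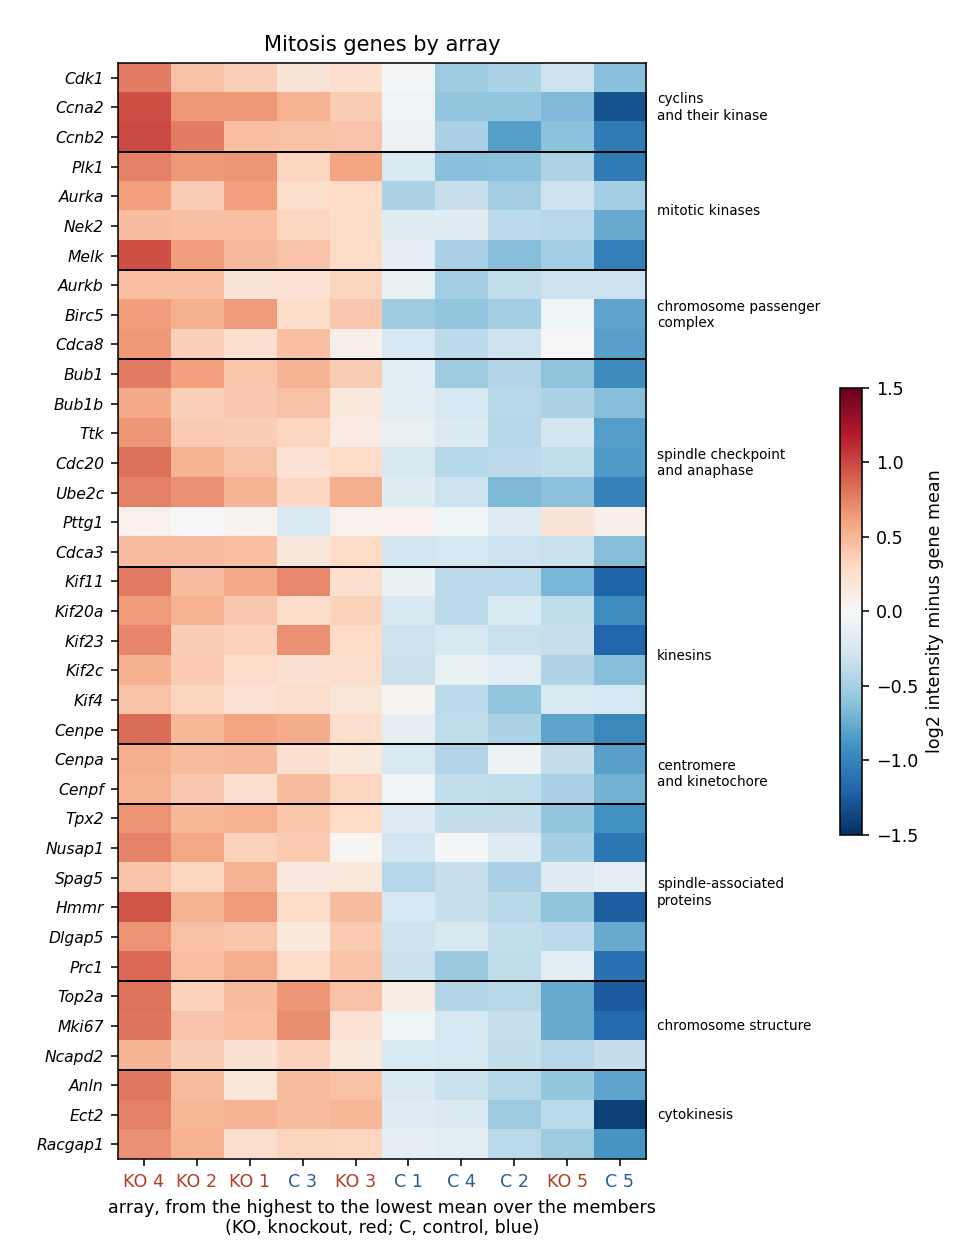
Each row is a measured mitosis gene, grouped by role, and each column an array, ordered by its mean over the members. Colour is the log2 intensity minus the gene's mean over the 10 arrays. The arrays from knockout 4 to knockout 3 are red in nearly every row and the arrays from control 1 to control 5 blue, with Pttg1 as the pale exception.

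As a description, the Pearson correlation of each member with the mean of the other members was above 0.9 in 34 of 37 over the 10 arrays, with a median of 0.97. The exceptions were Kif4 (0.88), Spag5 (0.81) and Pttg1 (-0.11). The arrays fall into sets of 5 and 5, too few for a correlation within each, so this value cannot be separated from the gap between them. Leaving out control 5 and knockout 4, the 2 arrays farthest from the median, keeps that gap, and the value was then above 0.9 in 33 of 37. After each group's mean was removed, the median correlation over the 666 pairs of members was 0.93.

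The members also varied more inside a group than most genes. Their residual SD, the spread of log2 values around the group means, had a median of 0.42, against 0.18 over all genes, and 36 of 37 lay above the latter. It was in the top 10% of all genes, from 0.34 upwards, in 31 of 37. The highest array exceeded the lowest by 1.34-fold in Pttg1 and by 1.91-fold in Ncapd2 to 4.81-fold in Ccna2 for the other members.

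Late cell cycle genes are known for a pair of promoter elements, the cell cycle genes homology region (CHR), bound by the MuvB core of the DREAM and MYB-FOXM1 complexes, and CCAAT boxes, bound by NF-Y. RefSeq promoter windows (GRCm38.p6), from 250 bases before to 50 after the annotated start, were found by symbol for 32 of the 37 measured members. Aurkb, Ccna2, Dlgap5, Kif20a and Tpx2 had no entry. Ect2 and Prc1 had 2 overlapping windows each, and positions were counted in the first listed window of every gene. The CHR was searched as TTTGAA or TTCGAA and the CCAAT box as CCAAT, each on both strands, and overlapping matches were kept (1 overlap between the motifs in these windows). A CHR match lay in 26 of 32 members (81.2%), against 21.7% of the 27025 genes in the table, and a CCAAT match in 26 of 32 (81.2%), against 41.1%. Both were present in 24 of 32 (75.0%), against 8.61%. Of the 35 CHR matches in members, 24 (68.6%) began within 50 bases of the annotated start, against 24.7% of matches in all genes. No test was made of these shares, and a match is a run of letters, not a shown binding site. CCAAT shares above 41.1% also occurred in other gene lists, given below.

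Windows are printed for Plk1, Ccnb2 and Cdc20, which hold the elements close to the start, and for Birc5, which has the smallest p, and Pttg1, which departs from the array order. Capitals mark a CHR or CCAAT match on either strand, and 250 bases come before the start.
Plk1, chr7:122159185-122159484, plus strand: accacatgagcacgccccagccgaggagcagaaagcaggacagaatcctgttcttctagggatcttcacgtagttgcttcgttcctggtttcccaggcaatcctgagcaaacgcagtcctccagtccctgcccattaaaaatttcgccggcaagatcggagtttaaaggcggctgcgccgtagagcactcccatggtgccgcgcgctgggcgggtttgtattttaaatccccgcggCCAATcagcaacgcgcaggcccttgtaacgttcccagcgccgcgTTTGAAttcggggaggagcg
Ccnb2, chr9:70421505-70421804, minus strand: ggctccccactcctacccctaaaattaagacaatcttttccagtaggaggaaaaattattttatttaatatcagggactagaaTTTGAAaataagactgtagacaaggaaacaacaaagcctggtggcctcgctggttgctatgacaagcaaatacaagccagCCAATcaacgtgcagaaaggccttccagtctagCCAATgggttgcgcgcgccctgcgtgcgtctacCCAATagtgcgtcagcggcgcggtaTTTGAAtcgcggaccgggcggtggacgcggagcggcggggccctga
Cdc20, chr4:118437294-118437593, minus strand: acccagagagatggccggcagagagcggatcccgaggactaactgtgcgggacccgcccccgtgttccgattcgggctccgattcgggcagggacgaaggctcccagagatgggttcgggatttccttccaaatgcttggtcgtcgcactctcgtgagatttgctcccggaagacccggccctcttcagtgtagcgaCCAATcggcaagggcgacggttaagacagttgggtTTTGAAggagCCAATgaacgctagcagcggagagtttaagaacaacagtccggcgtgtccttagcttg
Birc5, chr11:117848987-117849286, plus strand: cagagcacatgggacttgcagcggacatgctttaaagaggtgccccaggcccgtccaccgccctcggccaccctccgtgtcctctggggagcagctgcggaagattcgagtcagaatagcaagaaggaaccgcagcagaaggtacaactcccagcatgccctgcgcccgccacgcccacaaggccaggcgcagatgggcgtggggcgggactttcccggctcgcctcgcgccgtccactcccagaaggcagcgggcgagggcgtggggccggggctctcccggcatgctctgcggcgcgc
Pttg1, chr11:43425932-43426231, minus strand: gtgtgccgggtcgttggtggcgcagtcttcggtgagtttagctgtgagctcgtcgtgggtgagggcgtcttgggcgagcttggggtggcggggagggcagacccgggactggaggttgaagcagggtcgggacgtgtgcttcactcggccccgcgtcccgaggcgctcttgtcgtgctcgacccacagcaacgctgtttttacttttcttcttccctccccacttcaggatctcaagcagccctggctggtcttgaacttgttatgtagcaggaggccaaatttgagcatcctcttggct

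Neither element was found in the windows of 4 members, Birc5, Melk, Nusap1 and Pttg1. Of these, Pttg1 departed from the shared array order, while Melk (correlation with the other members 0.99), Nusap1 (0.93) and Birc5 (0.93) followed it. An absent match says only that these letters are not in this window. The nearest CHR match began 30 bases after the start in Plk1, 4 bases after it in Ccnb2 and 18 bases before it in Cdc20 (position -18).

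**Figure D2:**
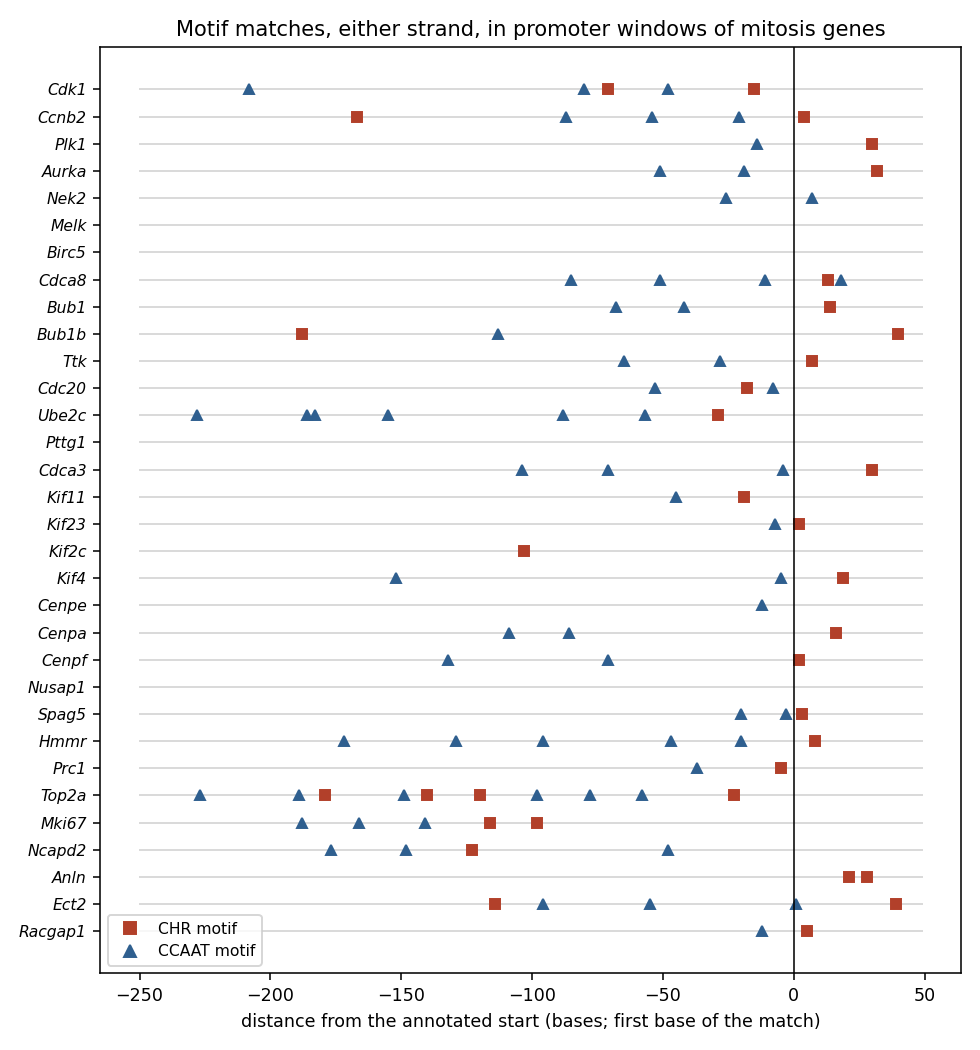
Each line is the first listed promoter window of a mitosis gene with a RefSeq entry, and symbols mark the first base of each CHR match (squares) and CCAAT match (triangles) by distance from the annotated start. CHR matches gather close to the start, where 24 of 35 begin within 50 bases, and 4 genes have no match of either kind.

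Among the cyclins and their kinase, 3 of 4 genes were measured, and all 3 stood higher in knockout without passing the test. Cdk1, the kinase that drives entry into mitosis, was at 7.33, 7.40, 7.20, 7.73 and 6.64 on the log2 scale in knockout arrays 1 to 5, and at 6.94, 6.49, 7.16, 6.43 and 6.34 in control arrays 1 to 5. Knockout 5 lay below control 1 and control 3, and the other knockout arrays lay above every control. The difference was 0.59 (SE 0.20, limma adjusted p = 0.272). Ccnb2, a B-type cyclin that activates Cdk1, had a difference of 0.81 (SE 0.32), and Ccna2, the cyclin of S phase and G2, one of 0.80 (SE 0.34).

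Of the mitotic kinases, 4 of 4 stood higher, with a median difference of 0.69. Plk1, polo-like kinase, which acts at centrosomes and kinetochores, had the largest difference of all members, 0.88 (SE 0.27, 1.84-fold, limma adjusted p = 0.208). Its values were 8.42, 8.40, 8.36, 8.52 and 7.29 in the knockout arrays and 7.53, 7.15, 8.08, 7.13 and 6.70 in the controls. Knockouts 1 to 4 stood close together above every control, and knockout 5 fell among the controls, below control 1 and control 3. Aurka, the Aurora kinase of the spindle poles, measured 7.64, 7.40, 7.32, 7.64 and 6.70 in knockout and 6.54, 6.50, 7.28, 6.68 and 6.51 in control (difference 0.64, SE 0.19, adjusted p = 0.207). Here control 3 was apart from the other 4 controls and just below knockout 3. Melk, a kinase abundant in dividing cells, differed by 0.75 (SE 0.29) and Nek2, a centrosomal kinase, by 0.48 (SE 0.21).

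The chromosome passenger complex corrects faulty attachments of chromosomes and later guides cytokinesis, and 3 of 3 of its genes on the list stood higher. Birc5, which encodes survivin, was at 6.79, 6.69, 6.56, 6.78 and 6.09 in knockout and at 5.63, 5.65, 6.42, 5.56 and 5.37 in control. Only control 3 exceeded a knockout array, knockout 5. The difference was 0.86 (SE 0.19, 95% confidence interval 0.44 to 1.27, limma adjusted p = 0.0861; two-sided exact permutation p = 0.0159). Among the members the permutation test was run only for Birc5, Plk1 (p = 0.0238) and Mki67, without adjustment. Birc5 had the smallest limma p of the members, so its permutation p is no separate support. Birc5 was the one member with adjusted p under 0.1, a limit that 0.528% of all genes passed upwards. Cdca8, borealin, differed by 0.53 (SE 0.20), and Aurkb, the kinase of the complex, by 0.44 (SE 0.17).

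**Figure D3:**
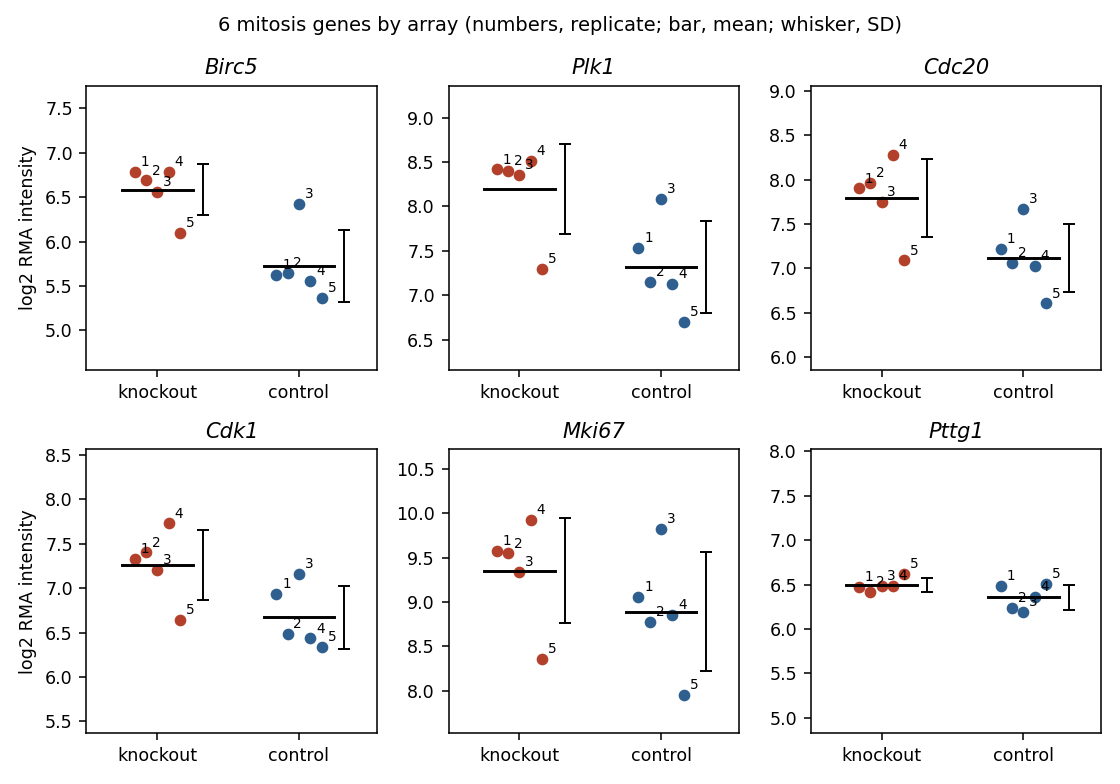
Log2 intensity of 6 mitosis genes in each array, with the replicate number beside each point, a bar at the group mean and a whisker of 1 SD (n = 5 per group); every panel spans the same log2 range. In all panels but Pttg1, knockout 5 sits below the other knockout arrays and control 3 above the other controls.

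Genes of the spindle checkpoint and of anaphase stood higher in 7 of 7 cases, and they held the member with the smallest difference. Cdc20, the activator of the anaphase-promoting complex, measured 7.90, 7.96, 7.74, 8.28 and 7.09 in knockout and 7.22, 7.06, 7.67, 7.03 and 6.60 in control (difference 0.68, SE 0.22, limma adjusted p = 0.240). Cdca3, linked to the entry into mitosis, was at 7.11, 7.12, 6.96, 7.12 and 6.33 in knockout and 6.39, 6.34, 6.83, 6.40 and 6.02 in control (difference 0.53, SE 0.17). In these 2 genes knockouts 1 to 4 lay above all controls, and knockout 5 lay inside the control range. Ube2c, the ubiquitin-conjugating enzyme of the anaphase-promoting complex, differed by 0.75 (SE 0.28). The checkpoint kinases Bub1 and Ttk differed by 0.63 (SE 0.28) and 0.51 (SE 0.21), and Bub1b, which encodes BubR1, by 0.41 (SE 0.22).

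Pttg1, which encodes securin, the inhibitor of the enzyme that cuts cohesin, did not follow the rest. Its log2 values were 6.48, 6.41, 6.49, 6.49 and 6.62 in knockout and 6.49, 6.24, 6.20, 6.36 and 6.50 in control, a difference of 0.14 (SE 0.09, limma adjusted p = 0.571). Knockout 5, low in nearly all other members, was its highest array, and control 3, high in the others, its lowest. Its residual SD was 0.11, the lowest of the members.

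Kinesins move chromosomes and slide microtubules, and 6 of 6 stood higher, with differences of 0.37 to 0.61. Kif20a, a motor of cytokinesis, was at 7.13, 7.25, 7.07, 7.37 and 6.36 in knockout and at 6.49, 6.50, 7.01, 6.34 and 5.80 in control (difference 0.61, SE 0.22, limma adjusted p = 0.298). Kif4, a chromosome-bound motor of the spindle midzone, was at 6.62, 6.73, 6.58, 6.82 and 6.17 in knockout and at 6.45, 5.81, 6.66, 6.0 and 6.14 in control, where control 3 exceeded knockouts 1, 3 and 5 (difference 0.37, SE 0.17). Kif23, Cenpe and Kif11, the motor that separates the spindle poles, differed by 0.56 (SE 0.29), 0.56 (SE 0.31) and 0.55 (SE 0.33), and Kif2c, which depolymerises microtubules, by 0.41 (SE 0.19).

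At the centromere, Cenpa, the histone variant that marks it, measured 7.18, 7.17, 6.87, 7.25 and 6.35 in knockout and 6.48, 6.62, 6.94, 6.26 and 5.89 in control. The difference was 0.53 (SE 0.21, limma adjusted p = 0.333), with control 3 above knockouts 3 and 5. Cenpf, of the outer kinetochore, differed by 0.41 (SE 0.22).

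Spindle-associated proteins stood higher in 6 of 6 cases. Prc1, which bundles microtubules in the midzone, was at 8.02, 7.92, 7.90, 8.32 and 7.32 in knockout and at 7.14, 7.09, 7.76, 6.91 and 6.35 in control (difference 0.84, SE 0.23, limma adjusted p = 0.160). Control 3 was the one control above knockout 5. Spag5, astrin, a partner of the kinetochore and spindle, measured 6.80, 6.60, 6.44, 6.71 and 6.10 in knockout and 5.85, 5.79, 6.42, 5.93 and 6.15 in control (difference 0.50, SE 0.15, adjusted p = 0.197). In Spag5 control 5, the lowest array in most members, stood above knockout 5. Dlgap5, a stabiliser of spindle fibres, was at 7.46, 7.47, 7.43, 7.71 and 6.64 in knockout and at 6.73, 6.66, 7.18, 6.79 and 6.28 in control (difference 0.61, SE 0.20). Hmmr, which binds hyaluronan and the spindle, had a difference of 0.79 (SE 0.30), Tpx2, the activator of Aurora A on the spindle, 0.56 (SE 0.26), and Nusap1 0.48 (SE 0.27).

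All 3 measured genes of chromosome structure stood higher, but 0 of 3 reached an unadjusted p under 0.05 in limma. Mki67, which encodes the proliferation antigen Ki-67 and is shown for its wide use, outside the rule for array values, was at 9.58, 9.55, 9.34, 9.92 and 8.36 in knockout and at 9.06, 8.78, 9.82, 8.85 and 7.95 in control. Control 3 stood above 4 of the 5 knockouts, and the difference was 0.46 (SE 0.33, limma adjusted p = 0.634; two-sided exact permutation p = 0.270). Top2a, the topoisomerase that untangles sister chromatids, differed by 0.53 (SE 0.34). Ncapd2, a condensin subunit, measured 7.19, 7.33, 7.12, 7.47 and 6.53 in knockout and 6.73, 6.60, 7.31, 6.71 and 6.60 in control (difference 0.34, SE 0.18), and knockout 5 was its lowest array.

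For cytokinesis, Ect2, which activates RhoA at the cleavage site, was at 9.09, 9.07, 9.07, 9.33 and 8.17 in knockout and at 8.38, 8.03, 9.05, 8.36 and 7.17 in control. Control 3 was just below knockouts 1 to 4, and control 5 was the lowest array (difference 0.75, SE 0.30, limma adjusted p = 0.343). Anln, anillin, which links actin and the contractile ring, differed by 0.53 (SE 0.26) and Racgap1, of the centralspindlin complex, by 0.50 (SE 0.24).

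**Figure D4:**
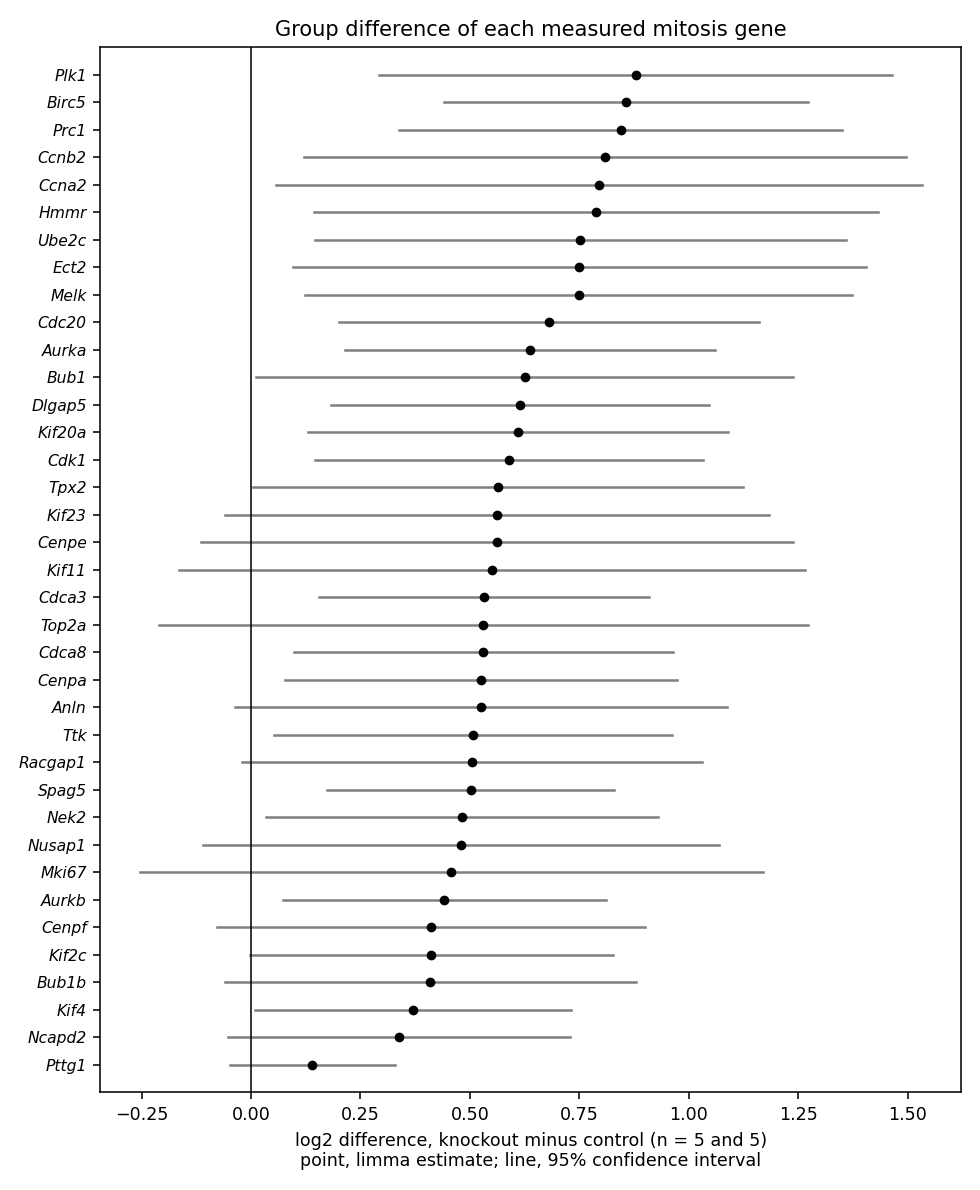
Log2 difference of knockout minus control for each measured mitosis gene, with its 95% confidence interval from limma (5 arrays in each group), sorted by size. All 37 points lie above 0, from 0.14 for Pttg1 to 0.88 for Plk1, and 24 of the 37 intervals, not adjusted for the number of genes, lie wholly above 0.

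To see whether members differed from each other beyond the shared order, each was set against the mean of the other 36 in the same array. By this measure the 5 knockout arrays averaged 0.16 ± 0.14 (SD) for Plk1 and the 5 controls -0.16 ± 0.11 (SD), and for Birc5 the values were 0.14 ± 0.16 and -0.14 ± 0.15. Mki67 was at -0.06 ± 0.18 in knockout and 0.06 ± 0.25 in control. The groups overlapped in 36 of 37 members, and nothing is read from the single exception, since the log2 values themselves did not overlap in 2.77% of all genes. It was Bub1b, below the mean of the other members in every knockout array (-0.09 ± 0.05) and above it in every control (0.09 ± 0.08). A ratio within an array shows unequal change, and no test was made of it.

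Genes of neighbouring cell cycle steps were examined as 5 lists of genes with known roles. Limma called 0 genes of these lists in either direction. Of 40 other mitosis genes, 39 had higher values, 14 at an unadjusted p under 0.05, and the median difference was 0.38. The smallest p values belonged to Cep55, of the final cut between daughter cells (0.79, SE 0.23), Aspm, of the spindle poles (0.64, SE 0.19), and Espl1, separase (0.36, SE 0.13). Array means of this list spanned -0.63 to 0.39 among controls and -0.36 to 0.55 among knockouts, with knockout 4 highest and control 5 lowest, as in the members.

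S phase and replication genes differed less. Values were higher for 24 of 29 measured genes and lower for 5 (median 0.16), and at an unadjusted p under 0.05 there was 1 in each direction. Mcm2, of the replicative helicase, was at -0.42 (SE 0.14), Gins1, of the same helicase, at 0.56 (SE 0.20) and Rrm2, of ribonucleotide reductase, at 0.48 (SE 0.22). Array means for this list were close in knockout 4 (0.46) and control 3 (0.45). In the same promoter windows, a CHR match lay in 22 of 34 other mitosis genes (64.7%). It lay in 4 of 25 S phase and replication genes (16%). CCAAT matches lay in 61.8% and 68.0% of these lists in turn. CHR matches also lay in 7 of 15 transcription regulators (46.7%), 1 of 9 inhibitors (11.1%) and 1 of 6 phosphatases and G1 cyclins (16.7%). The cell type and region lists described below ran from 0% (0 of 8 stem cell and 0 of 5 goblet cell genes) to 60% (3 of 5 germinal centre genes). CCAAT matches lay in 9 of 15 regulators (60%), 7 of 9 inhibitors (77.8%) and 4 of 6 phosphatases and G1 cyclins (66.7%). Over the cell type and region lists they ran from 0% (0 of 5 germinal centre genes) to 71.4% (5 of 7 smooth muscle genes). A high CCAAT share was thus not particular to the mitosis genes.

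Transcription regulators of the cycle had higher values in 16 of 20 cases, with a median of 0.12 and 4 at an unadjusted p under 0.05. E2f3 was at 0.37 (SE 0.11), Mybl2, the B-MYB of the complex that activates mitotic genes, at 0.32 (SE 0.12) and E2f2 at 0.52 (SE 0.20). Cell cycle inhibitors went both ways, 6 of 11 higher and 5 lower, 2 in each direction at an unadjusted p under 0.05, with a median of 0.02 and a mean of -0.01. Wee1, the kinase that holds Cdk1 inactive, was at -0.42 (SE 0.12), Cdkn2b, the p15 inhibitor, at 0.54 (SE 0.16) and the antiproliferative Btg2 at -0.47 (SE 0.18). Among mitotic entry phosphatases and G1 cyclins 7 of 9 were higher, 2 at an unadjusted p under 0.05, with a median of 0.27. Ccnd2 and Ccnd1, D-type cyclins, were at 0.63 (SE 0.26) and 0.66 (SE 0.31), and Cdc25c, which activates Cdk1, at 0.52 (SE 0.22).

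Outside the members, the genes whose log2 values were most like the member mean over the 10 arrays, by Pearson correlation and with no test, were Arhgap11a (0.996), Cip2a (0.996), Npm1 (0.995), Kif20b (0.994), Hmgb2 (0.990), Gins4 (0.990), Diaph3 (0.987), Ndc1 (0.986), Nuf2 (0.986) and Tacc3 (0.985). Of 22143 other genes, 477 (2.15%) had a correlation above 0.9 and 45 (0.203%) one below -0.9. Nuf2 and Tacc3 are also on the list of other mitosis genes.

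Markers of the cell types in the tissue were set beside the members. Intestinal stem cell genes had array means of -0.45 to 0.33 in knockout and -0.58 to 0.59 in control, highest in control 3 and lowest in control 5, with 8 of 13 higher in knockout and a median difference of 0.01. Axin2, a Wnt target, was at 0.55 (SE 0.21), and Lgr5, the receptor that marks these stem cells, at -0.61 (SE 0.27). Paneth cell genes, from the granular cells at the crypt base, spanned -2.03 to 0.81 among controls and -0.78 to 0.76 among knockouts. Of the 10 measured, 7 were higher, with Pla2g2a at 0.89 (SE 0.44), and 3 lower, with Clps at -0.89 (SE 0.44), Defa26 at -0.35 (SE 0.36) and Itln1 at -0.30 (SE 0.47), and the list median was 0.15. Lgr5 and the 3 lower Paneth genes were chosen after their values were seen. Control 5 was lowest for members, stem cell and Paneth cell genes alike. It was also lowest for goblet cell genes (-0.29) and for B and plasma cell genes (-0.56), so this was not particular to crypt genes. Knockout 5 was low in the members (-0.43), stem cell genes (-0.45), Paneth genes (-0.63) and goblet cell genes (-0.24), but not in B and plasma cell genes (0.47). Knockout 1 was low in Paneth genes (-0.78) and high in the members (0.42). The summed intensity of the Paneth list was 15540.5 to 45234.0 in knockout and 5671.6 to 43248.6 in control, and that of the stem cell list 2272.1 to 5284.7 and 1978.5 to 7423.4.

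Mature enterocyte genes went the other way over the arrays, with the highest mean in control 5 (0.19) and the lowest in knockout 4 (-0.29). Of 16, 13 were lower in knockout, with a median of -0.06 and Lct, lactase, at -0.72 (SE 0.15, limma adjusted p = 0.0640). Their summed intensity was 104674.0 to 118856.5 in knockout and 111818.6 to 126641.3 in control, so enterocyte genes as a sum were read in every array. This sum does not show which part of the small bowel was sampled. With the mean of the Paneth and stem cell lists as a covariate, the median difference of the members was 0.50, and 5 were called higher: Plk1 (0.83, SE 0.17, limma adjusted p = 0.0388), Birc5 (0.83, SE 0.15, 0.0242), Cdc20 (0.64, SE 0.14, 0.0468), Prc1 (0.80, SE 0.13, 0.0168) and Ect2 (0.69, SE 0.13, 0.0288). That fit called 0.672% of all genes higher. Array means of the stem cell and Paneth lists correlated with the member mean at 0.81 and 0.62 (Pearson). The covariate thus shares the members' spread over the arrays, and the part of crypt cells in their difference was not tested.

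**Figure D5:**
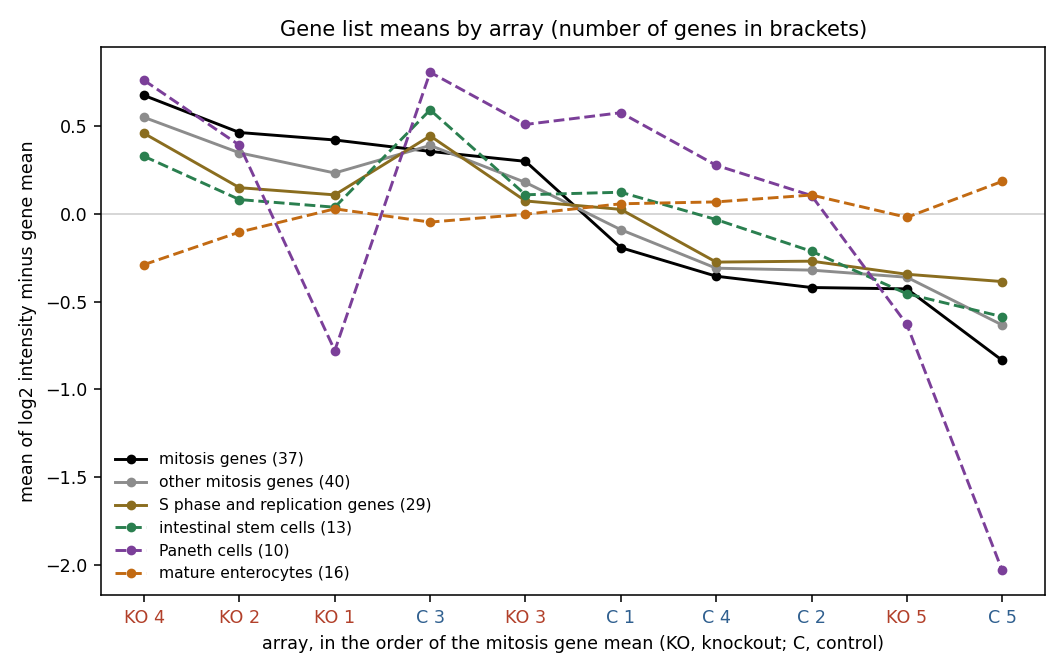
Mean over each gene list of the log2 intensity minus the gene's mean, by array, in the order of the mitosis gene mean; the number of measured genes is in brackets. Other mitosis genes follow the order of the mitosis genes apart from control 3, S phase genes peak in knockout 4 and control 3, stem cell genes peak in control 3, Paneth genes drop in knockout 1, knockout 5 and control 5, and enterocyte genes change little and in the other direction.

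Other cell types that divide or that dilute the epithelium were looked at in the same way. T cell genes were lower in 10 of 10 cases (median -0.45, Cd8a at -0.79, SE 0.23), with array means of -0.82 to 0.29 in knockout and -0.06 to 0.77 in control, and knockout 4, the highest array for the members, was the lowest. B and plasma cell genes were higher in 8 of 11 cases (median 0.17, Ms4a1, which encodes CD20, at 0.85, SE 0.50), with means of -0.14 to 0.47 and -0.56 to 0.60. Germinal centre genes, from B cells that divide in Peyer's patches, were higher in 2 of 5 cases (median -0.07, range of means -0.19 to 0.06 and -0.02 to 0.18), with Rgs13, also a tuft cell gene, at -0.62 (SE 0.13).

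Goblet cell genes were lower in 7 of 10 cases (median -0.22, means of -0.24 to 0.14 and -0.29 to 0.22), with Fcgbp at -0.45 (SE 0.10). Smooth muscle genes were lower in 6 of 10 (median -0.15, means of -0.30 to 0.16 and -0.29 to 0.93, Synm at -0.23, SE 0.13). Genes of the distal small intestine were higher in 7 of 10 cases (median 0.21, means of -0.98 to 0.86 and -0.80 to 0.13). Among them Fgf15, an ileal hormone, was at 1.16 (SE 0.26). Chosen after their values were seen, Fabp6, the ileal bile acid binding protein, was at 3.89 (SE 0.97), Slc10a2, the ileal bile acid transporter, at 2.23 (SE 0.82) and Cubn, the receptor for vitamin B12 with intrinsic factor, at -0.84 (SE 0.19). Limma called 0 genes of the 9 cell type and region lists. At an unadjusted p under 0.05 there were 4 distal genes and 1 stem cell gene higher, and 5 goblet, 4 T cell, 3 enterocyte, 1 stem cell, 1 germinal centre and 1 distal gene lower. The lowest intensity of any list gene was 9.7, below the array medians of 45.8 to 48.1. No value in the data was 0, so this does not show that every marker was detected. The part of any of these cell types, or of the bowel region, in the members' difference was not tested. With the distal list as a covariate the members' median was 0.61, and 0 members were called by limma and 18 reached an unadjusted p under 0.05. That fit called 13 of all genes, against 76 in the main fit. The share of all genes at the unadjusted limit is not given for it.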

How the data were processed

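The authors deposited linear RMA intensities, one value per probe set and array, made with Affymetrix Expression Console 1.4.1.46 per the submitters' processing notes. RMA evens out the arrays, so a change common to most genes is lost. Here log2 was taken first, since the file proved to be linear. Probe sets with exactly 1 symbol (23521 of 41345) were kept, and per gene the one with the highest mean, which left 22180 genes; each measured member had a single probe set. Groups came from the sample titles. Limma 3.58.1 in R 4.3.3 (lmFit and eBayes, group as the only term) was fitted to all genes, with Benjamini-Hochberg adjustment over all of them and calls at adjusted p under 0.05. It was tested on simulated data. Array values are given for the 10 members with the smallest p, the 3 with the smallest difference and 1 of each remaining role, and up to 3 genes of each list are named. Of 217 list genes, 204 were measured. Members, lists and rules were chosen with earlier results of these data known. Promoters are from RefSeq (GRCm38.p6). The labels do not state whether replicate numbers pair the arrays, and the main fit did not pair them. Over all genes, deviations of same-numbered arrays correlated at -0.13 to 0.12, above 0.1 in 1 of 5. That check does not settle pairing for the members.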

Additional observations from a re-analysis of the deposited data

Results flagged for a closer look

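In 12 of 74 member-and-group sets, 1 array stood apart from the other 4 by more than 0.710 of the group's whole range; chance gives about 5%, and the members share 1 pattern, so the 12 are not independent. Knockout 5 was the low array in 9 of them: Plk1 (0.868), Ube2c (0.824), Cdca3 (0.793), Nek2 (0.787), Ect2 (0.774), Cenpf (0.739), Dlgap5 (0.737), Kif2c (0.723) and Bub1 (0.720). Control 3 was the high array in the others, Ncapd2 (0.807), Aurka (0.774) and Birc5 (0.734). Outside the members, knockout 5 was low in Diaph3 (0.743), control 3 was high in Mybl2 (0.727) and control 2 was high in Ms4a1 (0.759).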

How the results depend on the processing

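All 37 members kept a higher mean in knockout under all 22 alternatives, and Pcyt1a stayed called in all 22 (-1.78 to -1.63, adjusted p up to 0.00234). The number of members called was 0, but 1 with array weights (Birc5; 142 of all genes called, against 76), 1 at adjusted p under 0.1 and 5 with the Paneth and stem cell lists as a covariate, and 0 to 1 with 1 array left out; the cause was not tested. Birc5 ran from 0.69 to 1.03 (adjusted p 0.0179 to 0.218). With the Paneth and stem cell covariate, 3 other mitosis genes and 1 G1 cyclin, Ccnd2, were called. That fit called 289 of all genes. Among the inhibitors 1 gene, Cdkn2b, was called without knockout 1 and control 5 together, and 0 to 1 with 1 array left out (1 without knockout 1). More genes were called in these fits: 186 of all genes without knockout 1 and control 5, and 268 without knockout 1, against 76. The inhibitors' median was -0.081 with the distal list as a covariate. With 1 array left out the medians ran from 0.27 to 0.55 for other mitosis genes, 0.07 to 0.27 for S phase genes, 0.08 to 0.15 for regulators, -0.06 to 0.07 for inhibitors and 0.15 to 0.43 for phosphatases and G1 cyclins. The replicate block called 0 members and 27 genes in all, against 76 without it. With the block, 34 of 37 members reached an unadjusted limma p under 0.05, against 24 without it. The share of all genes at that limit with the block is not given. The smallest limma adjusted p of a member was then 0.083, for Plk1. Shifting or quantile normalization swapped control 2 and knockout 5 in the array order. The count of arrays and their spread limit what could be called.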
